A study of Gallus gallus with 6 samples.

Results

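This account covers the genes of DNA replication and mitosis in the uterovaginal junction of breeder hens. The list named 45 genes that make up the machinery of cell division. A row of the table counted as a member when its gene symbol was on the list, which gave 40 members among 20285 rows. All 40 had enough reads to be tested, among 15655 tested genes. RRM2 and MKI67 had no symbol in the file but were found through their NCBI gene number in a RefSeq table, and are described beside the members without being counted among them. TYMS, KIF20A and PRC1 were not analysed here.

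The uterovaginal junction is the short stretch of the hen's oviduct between the shell-forming uterus and the vagina, and its mucosa holds the tubules that store sperm. RNA-seq libraries were made from hens kept at a thermoneutral 23 °C (3 libraries) and from hens held at 36 °C for 6 h (3 libraries, called heat stress here). RNA from 4 hens was pooled for each library, so 24 hens stand behind 6 values, and a replicate is a pool rather than a bird. The labels used here name no strain or age, and no genetic change or drug in any group. They name the junction and no single cell type, so a value is taken as a mix of cell types. Fewer dividing cells cannot be told apart from less RNA per dividing cell.

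A cell that is about to divide first loads the MCM helicase onto its replication origins with the help of the origin recognition complex and CDC6. CDC45 and the GINS complex then switch the helicase on, PCNA clamps the polymerases to the DNA, and ribonucleotide reductase supplies the deoxynucleotides. Once the DNA is copied, CDK1 with cyclins A and B drives the cell into mitosis, condensins compact the chromosomes, kinesins and microtubule-binding proteins build the spindle, and a checkpoint holds the cell until every chromosome is attached. Most of these genes are transcribed only in cycling cells, so in an adult tissue their RNA comes from a small share of the cells.

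Library totals ran from 23438814 to 29502991 counts. Genes of the oviduct and of its main tissues were present: the progesterone receptor PGR averaged 522 CPM (a gene's reads relative to its library's total, with totals scaled by the trimmed mean of M values, TMM) in thermoneutral libraries, the transcription factor PAX2 172, HOXA11 25.4, the epithelial gene EPCAM 2000 and the ciliated-cell factor FOXJ1 538. These genes do not separate the junction from the neighbouring oviduct segments. Of all genes tested, 10.2% were called higher and 9.52% lower under heat stress by edgeR's quasi-likelihood test at a Benjamini-Hochberg adjusted p under 0.05.

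The replication and mitosis genes were weakly expressed, as measured by the deposited FPKM, which divides by gene length and so allows genes to be compared. The members had a median FPKM over the 6 libraries of 2.19, against 12.0 over all genes tested, and 13 of the 40 averaged under 1 FPKM. PCNA, the sliding clamp of the replication fork, stood above the rest at 48.7 ± 2.47 FPKM in the thermoneutral group (mean ± SD, n = 3 libraries, as for every value with ± here). It held 27.8% of the members' summed FPKM. CDK1, the kinase that starts mitosis, came next at 18.9 ± 2.42 FPKM.

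Below them in the thermoneutral order came RRM1, the large catalytic subunit of ribonucleotide reductase, at 11.3 ± 0.463 FPKM and FEN1, the nuclease that trims Okazaki fragments, at 9.92 ± 0.482 FPKM. MCM3 (6.82 ± 1.09 FPKM), CCNB2 (6.04 ± 0.650 FPKM), MCM5 (6.01 ± 0.726 FPKM) and MCM4 (5.93 ± 0.128 FPKM) followed, and the thermoneutral library values of these 4 overlapped. The lowest levels were those of MCM10 at 0.255 ± 0.0307 FPKM and CCNE2, a cyclin of the entry into S phase, at 0.217 ± 0.0857 FPKM. CCNE2 rested on 8 to 19 reads per library and MCM10 on 13 to 25, so counting error is a large part of their spread.

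**Figure D1:**
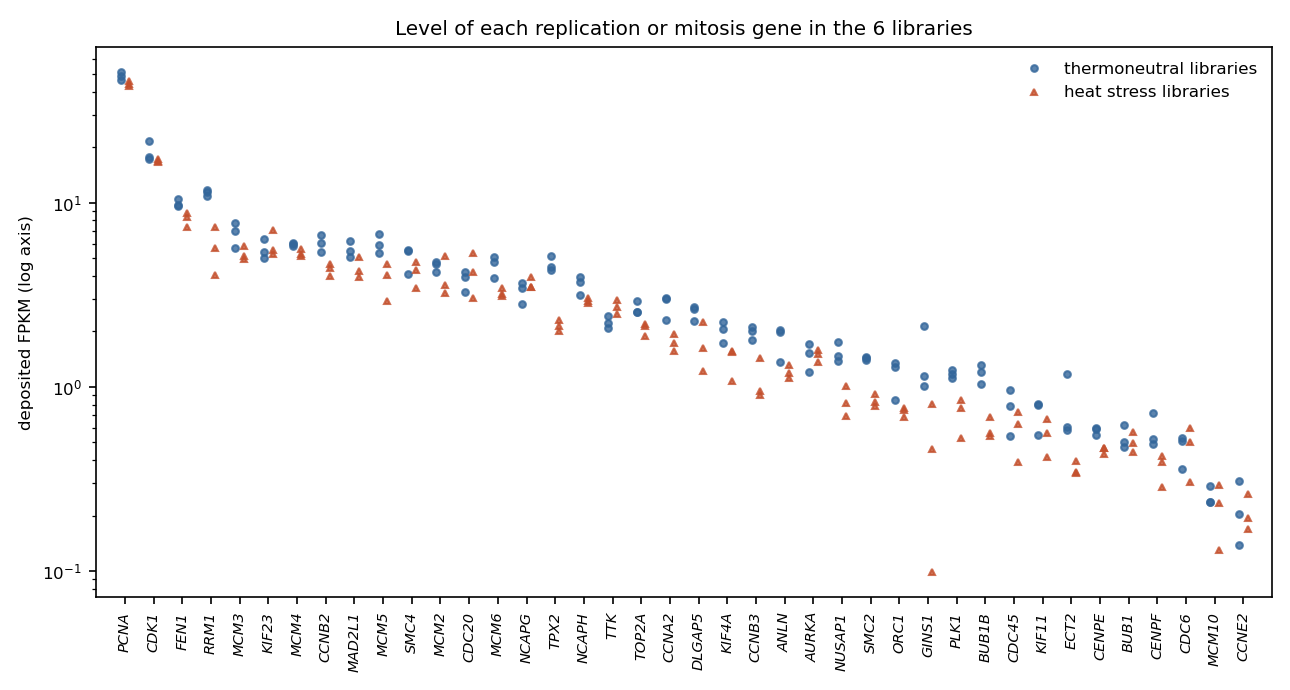
Deposited FPKM (log axis) of each of the 40 replication and mitosis genes in each library, ordered by the mean over all 6 libraries; circles are thermoneutral and triangles heat stress libraries (n = 3 each). PCNA stands highest, CCNE2 lowest, and the lowest single point is GINS1 in heat stress replicate 2.

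Under heat stress 5 of the 40 members fell, TPX2, RRM1, BUB1B, SMC2 and NUSAP1, and 35 did not pass the test. None rose: edgeR called 0 members higher, 1 had an unadjusted p under 0.05 in that direction, and DESeq2 and limma-voom also called 0 higher. The 5 falls are 12.5% of the members, near the 9.52% of all genes called lower, while 0 higher stands beside a background of 10.2%. The members' log2 changes (heat stress minus thermoneutral) lay mostly below 0: 32 of 40 were negative, against 51.0% of all genes tested. Their median was −0.270, against −0.008 over all genes. The members were chosen with earlier results of these data known, so this tilt is a description and not a test. The tilt was not particular to the members. Of the cell type markers described below, 57 of 76 log2 changes were negative and 19 positive, with a median of −0.194. Smooth muscle markers were negative in 10 of 10, macrophage markers in 8 of 9, epithelial markers in 4 of 9 and oviduct genes in 3 of 7. At an unadjusted p under 0.05, 13 members were lower, where 18.2% of all genes were. In 19 of the 40 members all 3 heat stress libraries lay below all 3 thermoneutral libraries, and in 2 they lay above, where the shares of all genes tested were 21.0% and 21.5%.

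Summed over the 40 members, the level was 428, 446 and 405 CPM in thermoneutral replicates 1, 2 and 3, and 346, 352 and 382 CPM in heat stress replicates 1, 2 and 3. The groups did not overlap, and the heat stress mean was 0.844 of the thermoneutral mean. The nearest sums were those of thermoneutral replicate 3 and heat stress replicate 3. Between these libraries RRM1 went from 39.2 to 20.4 CPM and TPX2 from 14.1 to 7.48 CPM, together more than the gap between the sums. The separation of these TMM-scaled sums therefore depended on RRM1 and TPX2. Heat stress replicate 1 was the lowest of the 6 libraries in 15 members, heat stress replicate 2 in 16 and heat stress replicate 3 in 2. The third heat stress library thus stood nearest to the thermoneutral ones, with a median log2 ratio to the thermoneutral mean of −0.200, against −0.383 and −0.327 for the first and second. Thermoneutral replicate 2 was the highest library in 16 members.

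**Figure D2:**
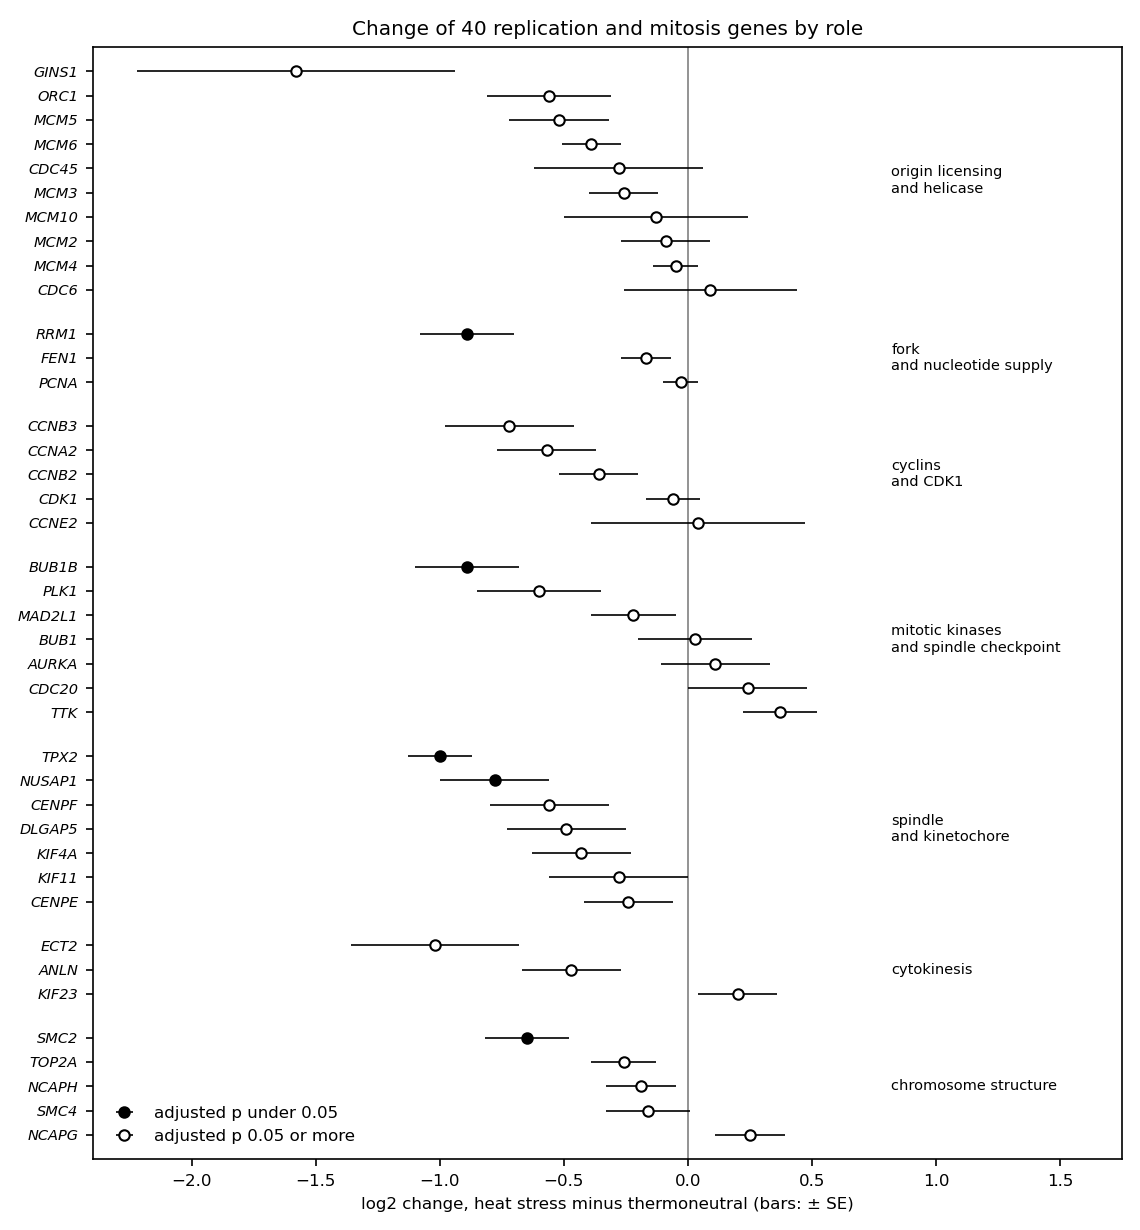
Log2 change (heat stress minus thermoneutral) of the 40 members, grouped by role; bars are ± SE and filled circles passed edgeR's quasi-likelihood test at an adjusted p under 0.05. The 5 filled points all lie left of 0, all 7 spindle and kinetochore genes lie left of 0, and the mitotic kinases and checkpoint genes lie on both sides.

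Origin licensing and helicase genes came to 10 members, of which 0 passed in either direction, beside 9.52% of all genes called lower and 10.2% higher. At an unadjusted p under 0.05 in edgeR 3 were lower and 0 higher, beside 18.2% and 18.4% of all genes. Negative log2 changes were seen in 9, with a median of −0.269, and in 51.0% of all genes tested. The smallest p-values were those of MCM6 and MCM5, subunits of the ring-shaped replicative helicase. MCM6, on chromosome 7 (30665923 to 30679252, genome build GRCg6a as for all positions here), measured 19.7, 21.1 and 16.3 CPM in thermoneutral replicates 1 to 3 and 14, 14.1 and 15.3 CPM in the heat stress replicates. All its heat stress values were the lower ones, at a log2 change of −0.39 (SE 0.12, edgeR adjusted p = 0.0615). DESeq2 called MCM6 lower (adjusted p = 0.0381), and so did edgeR with upper-quartile scaling (adjusted p = 0.0466).

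MCM5 went from 12.6, 16.1 and 14 CPM to 7.27, 10.5 and 11.8 CPM, again without overlap (log2 change −0.52, SE 0.20, edgeR adjusted p = 0.10). Its row overlaps that of HMOX1, the stress-induced heme oxygenase, on the same strand over 6126 bp. HMOX1 averaged 21.5 CPM in thermoneutral and 51.0 CPM in heat stress libraries (log2 change 1.25, edgeR adjusted p = 0.0629), so the pair's reads are not certain to be separate.

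The other helicase subunits differed less between the groups. MCM4 stood at 17.0, 16.5 and 17.1 CPM at 23 °C and at 16.6, 16.0 and 16.0 CPM at 36 °C, a log2 change of −0.05 (SE 0.09). MCM3 had a log2 change of −0.26 (SE 0.14) and MCM2 of −0.09 (SE 0.18), and in both the groups overlapped. MCM2 also spread widely within the heat stress group, at 15.4 ± 3.98 CPM, with replicate 3 highest. MCM7, the remaining subunit of the ring, was not analysed here.

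ORC1, the largest subunit of the origin recognition complex, went from 3.17 ± 0.753 to 2.14 ± 0.109 CPM, and its groups did not overlap (edgeR adjusted p = 0.141). GINS1, a subunit of the GINS complex, had the most negative log2 change of all members, −1.58, with the widest error (SE 0.64, edgeR adjusted p = 0.119). It was counted 28, 52 and 26 times in thermoneutral and 12, 3 and 20 times in heat stress libraries, so all heat stress values were lower but few reads carried them. Leaving out heat stress replicate 3 made the log2 change −2.28, and leaving out replicate 2 made it −1.07. The GINS1 row also overlaps NINL on the opposite strand over 1391 bp. CDC45, the helicase cofactor (log2 change −0.28), the initiation factor MCM10 (−0.13) and the helicase loader CDC6 (0.09) each had an SE of at least 0.34 and overlapping groups.

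Among the fork and nucleotide-supply genes RRM1 fell and the other 2 members did not pass. Of all genes tested, 9.52% were called lower and 10.2% higher. RRM1 lies on chromosome 1 (197157405 to 197175419) and measured 37.7, 36.0 and 39.2 CPM in the thermoneutral libraries against 25.9, 14.8 and 20.4 CPM in the heat stress libraries. The thermoneutral libraries lay close together and the heat stress libraries spread widely, with replicate 2 lowest, but no value of either group reached into the other. The fall was 1.85-fold (log2 change −0.89, SE 0.19, edgeR adjusted p = 0.0204). It passed without heat stress replicate 1 (adjusted p = 0.00458) or 2 (0.0321) and missed the threshold without heat stress replicate 3 (0.0801) or thermoneutral replicate 1 (0.0570), 2 (0.0669) or 3 (0.0629).

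The row that RefSeq names RRM2, the small subunit of the same enzyme, was at 5.14, 5.29 and 4.90 CPM at 23 °C and at 2.45, 1.90 and 4.30 CPM at 36 °C. Its 3 heat stress values were all lower, with replicate 3 nearest to the thermoneutral level, and it did not pass in edgeR (log2 change −0.83, SE 0.30, adjusted p = 0.0906). DESeq2 gave RRM2 an adjusted p of 0.0470.

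PCNA did not follow RRM1. Its values were 72.4, 69.7 and 66.2 CPM in thermoneutral and 66.3, 67.3 and 70.7 CPM in heat stress libraries, with overlapping groups and a log2 change of −0.03 (SE 0.07). FEN1 went from 24.2, 22.6 and 22.4 CPM to 20.5, 18.8 and 22.1 CPM, a log2 change of −0.17 (SE 0.10, edgeR adjusted p = 0.228). The FPKM of RRM1 relative to that of PCNA was therefore 0.232 ± 0.0181 in the thermoneutral and 0.128 ± 0.0368 in the heat stress group. This pair was chosen after its values were seen, and the ratio was not tested.

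Of CDK1 and the 4 cyclins, 0 passed in either direction in edgeR or DESeq2. The shares of all genes were 9.52% lower and 10.2% higher in edgeR, and 12.7% and 13.4% in DESeq2. At an unadjusted p under 0.05 in edgeR 2 were lower and 0 higher, beside 18.2% and 18.4% of all genes. The median log2 change was −0.365. CDK1, on chromosome 6 (9409873 to 9417895), averaged 21.2 ± 2.77 and 20.2 ± 0.659 CPM, from 473, 589 and 515 reads in thermoneutral and 485, 573 and 476 in heat stress libraries, with overlapping groups (log2 change −0.06, SE 0.11). The 3 mitotic cyclins had lower values under heat stress with no overlap between groups, as had 21.0% of all genes tested, and did not pass. CCNA2, the cyclin of S phase and early mitosis, went from 5.50, 4.25 and 5.64 CPM to 3.34, 3.16 and 3.87 CPM (log2 change −0.57, SE 0.20, edgeR adjusted p = 0.0773).

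CCNB3, a B-type cyclin, went from 3.25 ± 0.264 to 1.96 ± 0.574 CPM (edgeR adjusted p = 0.0867), and CCNB2, another, from 8.81 ± 0.989 to 6.84 ± 0.602 CPM (edgeR adjusted p = 0.138). The CCNB3 row overlaps a row without a symbol on the opposite strand over 3020 bp. CCNB1 was not analysed here. CCNE2 had a log2 change of 0.04 with an SE of 0.43, so neither a rise nor a fall could be seen at its depth.

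The mitotic kinases and spindle checkpoint genes did not share a direction: 3 of 7 log2 changes were negative and 4 positive, or 4 and 3 with upper-quartile scaling, under which BUB1 turned sign. Among all genes tested 51.0% of log2 changes were negative. Of the 7 genes 1 was called lower and 0 higher, beside 9.52% and 10.2% of all genes. BUB1B, the checkpoint kinase-like protein also called BubR1, fell. It lies on chromosome 5 (824101 to 848390) and was at 3.72, 4.34 and 4.78 CPM in thermoneutral and 2.05, 2.22 and 2.65 CPM in heat stress libraries, with a clear gap between the groups. The fall was 1.85-fold (log2 change −0.89, SE 0.21, edgeR adjusted p = 0.0261), and among the fits with a library left out it passed without thermoneutral replicate 1 (adjusted p = 0.0461). Without thermoneutral replicates 2 and 3 and heat stress replicates 1, 2 and 3 the adjusted p was 0.0840, 0.0810, 0.0505, 0.0761 and 0.0647.

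BUB1, the kinase whose name BUB1B shares and which works at the same kinetochores, was level at 2.29 ± 0.346 and 2.34 ± 0.322 CPM (log2 change 0.03, SE 0.23). The FPKM of BUB1B relative to BUB1 was 2.22, 1.95 and 2.65 at 23 °C and 1.23, 1.13 and 1.21 at 36 °C, a ratio chosen after the values were seen and not tested. PLK1, the polo-like kinase of mitotic entry, went from 2.95, 3.14 and 3.30 CPM to 1.49, 2.26 and 2.43 CPM without overlap (log2 change −0.60, SE 0.25, edgeR adjusted p = 0.122). MAD2L1, the checkpoint protein that holds back CDC20, had a log2 change of −0.22 (SE 0.17) with overlapping groups.

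TTK, the MPS1 kinase that starts checkpoint signalling, was the member with the highest log2 change. It stood at 6.27, 5.82 and 5.48 CPM in thermoneutral and 7.43, 7.07 and 8.30 CPM in heat stress libraries, so every heat stress value was the higher. The log2 change was 0.37 (SE 0.15), and it did not pass (edgeR unadjusted p = 0.0401, adjusted p = 0.119). CDC20, the activator of the anaphase-promoting complex, averaged 6.17 ± 0.816 and 7.29 ± 2.17 CPM, with heat stress replicate 2 highest at 9.43 CPM. AURKA, the Aurora A kinase of the spindle poles, averaged 2.89 ± 0.479 and 3.11 ± 0.305 CPM. In both genes the groups overlapped.

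**Figure D3:**
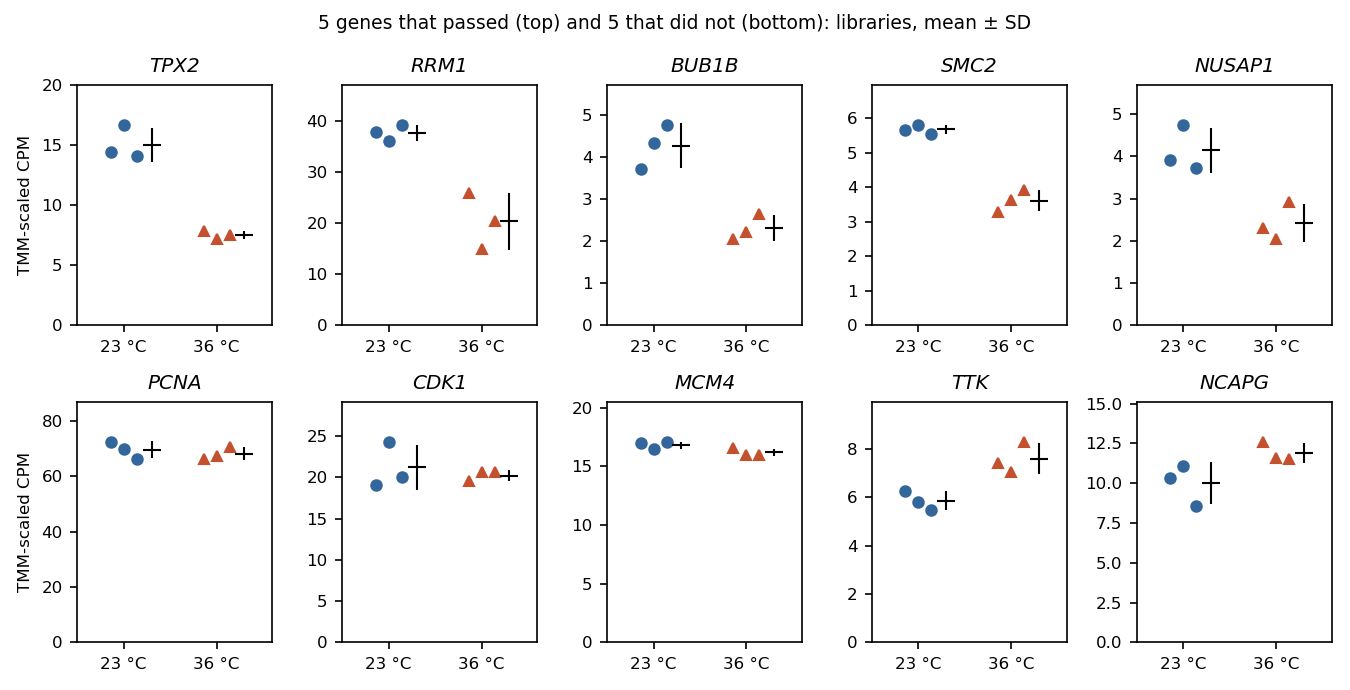
TMM-scaled CPM of 10 members in each library (circles 23 °C, triangles 36 °C; the bar beside them is mean ± SD, n = 3). The 5 genes in the top row passed the test and all have their heat stress values below the thermoneutral ones; of the 5 in the bottom row, PCNA, CDK1 and MCM4 overlap between groups, while TTK and NCAPG have all heat stress values above and did not pass.

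Of the 7 spindle and kinetochore genes 2 fell and 0 rose, beside 9.52% and 10.2% of all genes. At an unadjusted p under 0.05 in edgeR 3 were lower, beside 18.2% of all genes. All 7 log2 changes were negative, with a median of −0.486, where 51.0% of all genes had negative ones. The summed level of the 7 genes was 42.1, 50.0 and 43.0 CPM in thermoneutral and 29.0, 25.5 and 33.1 CPM in heat stress libraries. The heat stress mean was 0.649 of the thermoneutral mean. With a library left out the median ran from −0.673, without heat stress replicate 3, to −0.295, without heat stress replicate 2. Without each library in turn 1 of the 7 was called lower, beside 0.964% to 10.5% of all genes. The 3 cytokinesis genes had a median of −0.469, but their summed levels overlapped between groups, at a ratio of 0.984.

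TPX2 was the clearest change of all members. The protein activates Aurora A and nucleates spindle microtubules around the chromosomes. Its gene lies on chromosome 20 (10034302 to 10047698) and no other row overlaps it. The reads numbered 355, 404 and 362 in thermoneutral and 196, 200 and 172 in heat stress libraries, or 14.4, 16.7 and 14.1 CPM against 7.88, 7.17 and 7.48 CPM. Both groups were tight and far apart.

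The fall of TPX2 was 2.00-fold (log2 change −1.0, SE 0.13, edgeR adjusted p = 0.00920). It was the sole member that passed whichever library was left out, with log2 changes from −1.05 to −0.92 and adjusted p-values from 0.00571 to 0.0492. DESeq2 gave an adjusted p of 1.2e-08 and limma-voom 0.00960. Since AURKA was level, the FPKM of TPX2 relative to its kinase went from 2.61, 3.38 and 3.57 to 1.71, 1.28 and 1.42; the pair was chosen after its values were seen, and the ratio was not tested.

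NUSAP1, which bundles spindle microtubules, is on chromosome 5 (24796212 to 24810473). It fell 1.71-fold, from 3.92, 4.75 and 3.73 CPM to 2.29, 2.04 and 2.91 CPM (log2 change −0.78, SE 0.22, edgeR adjusted p = 0.0462). The groups did not overlap, but the call was close to the threshold. It was lost whichever library was left out, at adjusted p-values of 0.0891, 0.15 and 0.0829 without thermoneutral replicates 1, 2 and 3 and of 0.0856, 0.131 and 0.0749 without heat stress replicates 1, 2 and 3.

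The other spindle and kinetochore genes had smaller differences. CENPF, a large protein of the outer kinetochore, was at 4.45, 6.24 and 4.24 CPM and then at 3.54, 2.69 and 3.91 CPM (log2 change −0.56, SE 0.24, edgeR adjusted p = 0.132). KIF4A, a chromosome-bound kinesin, averaged 7.40 ± 1.01 and 5.49 ± 0.994 CPM. CENPE, the kinesin that carries chromosomes to the spindle equator, averaged 3.73 ± 0.170 and 3.16 ± 0.201 CPM. In these 3 genes the groups did not overlap and the heat stress values were the lower, as in 21.0% of all genes tested. The groups overlapped in DLGAP5, which stabilises the microtubules near chromosomes (log2 change −0.49, SE 0.24), and in KIF11, the kinesin that pushes the spindle poles apart (log2 change −0.28, SE 0.28).

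Of the 3 cytokinesis genes 0 passed in either direction in edgeR or DESeq2. The shares of all genes were 9.52% lower and 10.2% higher in edgeR, and 12.7% and 13.4% in DESeq2. At an unadjusted p under 0.05 in edgeR 1 was lower, beside 18.2% of all genes. ECT2, the exchange factor that switches on RhoA at the division furrow, had the second most negative log2 change of the members, −1.02 (SE 0.34, edgeR adjusted p = 0.0720). It was at 1.82, 3.72 and 1.90 CPM in thermoneutral and 1.13, 1.18 and 1.35 CPM in heat stress libraries. The groups did not overlap, and thermoneutral replicate 2 stood apart from the other 2 of its group. Without that library the log2 change was −0.61.

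ANLN, the scaffold of the contractile ring, had 6.51, 6.40 and 4.39 CPM and then 4.42, 3.95 and 4.13 CPM, so thermoneutral replicate 3 lay among the heat stress values (log2 change −0.47, SE 0.20, edgeR adjusted p = 0.140). KIF23, the kinesin of the midzone complex centralspindlin, went the other way, at 16.7 ± 2.01 and 19.2 ± 3.53 CPM with overlapping groups (log2 change 0.20, SE 0.16).

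Among the genes of chromosome structure SMC2 fell, and 4 members did not pass. Of all genes tested, 9.52% were called lower and 10.2% higher. SMC2, a core ATPase of both condensins, is on the Z chromosome (66668700 to 66692579). It measured 5.66, 5.82 and 5.56 CPM in thermoneutral and 3.29, 3.62 and 3.91 CPM in heat stress libraries, the smallest thermoneutral spread of the 5 genes that fell. The fall was 1.57-fold (log2 change −0.65, SE 0.17, edgeR adjusted p = 0.0322). Its call was lost whichever library was left out, at 0.0766, 0.104 and 0.0787 without thermoneutral replicates 1, 2 and 3 and 0.0651, 0.0848 and 0.0794 without heat stress replicates 1, 2 and 3.

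SMC4, the partner with which SMC2 forms the condensin core, had overlapping groups at 20.4 ± 3.19 and 18.2 ± 3.21 CPM (log2 change −0.16, SE 0.17). The condensin I subunits NCAPH and NCAPG did not pass. NCAPH had a log2 change of −0.19 (SE 0.14). NCAPG had one of 0.25 (SE 0.14, edgeR adjusted p = 0.245), at 10.3, 11.1 and 8.55 CPM against 12.6, 11.6 and 11.5 CPM. The NCAPG row spans a long interval on chromosome 4 (75726455 to 75920712) and overlaps LCORL on the opposite strand over 48530 bp. LCORL was called higher (log2 change 0.60, edgeR adjusted p = 0.0102), and it is not known whether the counting used strand, so the NCAPG value is uncertain.

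TOP2A, the topoisomerase that untangles sister chromosomes, was at 13.1, 15.3 and 13.3 CPM and then at 12.0, 12.2 and 10.5 CPM, lower in all heat stress libraries by a small margin (log2 change −0.26, SE 0.13, edgeR adjusted p = 0.174). The row that RefSeq names MKI67, the proliferation marker Ki-67, was at 7.08, 8.96 and 6.14 CPM at 23 °C and at 5.30, 4.88 and 6.17 CPM at 36 °C. Heat stress replicate 3 lay just above thermoneutral replicate 3, and the gene did not pass (log2 change −0.44, SE 0.20, edgeR adjusted p = 0.147).

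**Figure D4:**
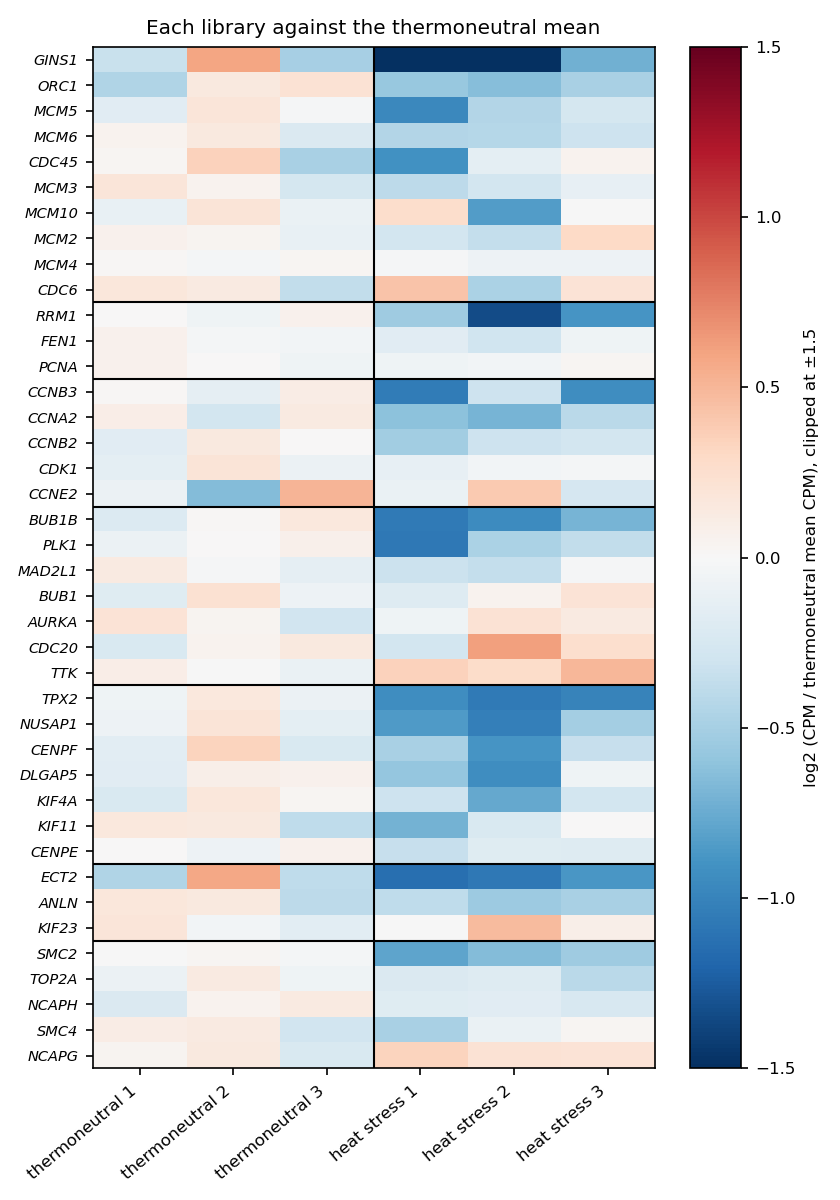
Each library's CPM of each member as a log2 ratio to the thermoneutral mean (blue lower, red higher, clipped at ±1.5), with members grouped by role. Blue fills most of the heat stress columns, most deeply in replicates 1 and 2, with TTK and NCAPG red in all 3 heat stress libraries.

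Of all genes, DESeq2 called 12.7% lower and 13.4% higher and limma-voom 9.62% and 9.7%, and among the members they called 6 and 5 lower. The share of all genes called lower by edgeR was 9.45% with relative log expression scaling, 11.4% with upper-quartile scaling, 6.89% without a filter, 12.7% with a stricter one, 9.14% with a replicate block and 10.5% over protein-coding rows, beside 5, 6, 4, 3, 3 and 5 members. The stricter filter kept 22 of the 40 members, so its 3 are 13.6% of those it tested. The counts depended on single libraries. Without thermoneutral replicates 1, 2 and 3, edgeR called 2, 1 and 1 members lower, and without heat stress replicates 1, 2 and 3 it called 2, 2 and 1. The shares of all genes called lower in the same fits were 5.11%, 1.4%, 4.13%, 10.5%, 4.32% and 0.964%. The ratio of the members' summed CPM between the group means was 0.819 to 0.864 with the same libraries left out. A ratio of sums and a count past a threshold are unlike measures. Over all 6 libraries the ratio was 0.844 with TMM scaling, 0.786 on unscaled totals and 0.813 in FPKM.

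Other genes of the cell cycle were read from 4 lists. Together 9 of 205 tested genes were lower (4.39%) and 8 higher (3.9%), against 9.52% and 10.2% of all genes, and the median log2 change was −0.085. In the list of other replication genes 1 of 45 was lower and 2 were higher, with a median of 0.000. At an unadjusted p under 0.05 in edgeR 8 were lower and 3 higher, beside 18.2% and 18.4% of all genes. In 9 all heat stress libraries lay below all thermoneutral ones and in 5 above, beside 21.0% and 21.5% of all genes. DESeq2 called 6 lower and 2 higher, beside 12.7% and 13.4% of all genes. RFC5, a subunit of the complex that loads PCNA, fell 1.78-fold, from 52.8, 49.3 and 48.9 CPM to 34.2, 25.7 and 25.1 CPM (SE 0.13 on the log2 scale, edgeR adjusted p = 0.0105). TIMELESS, which protects stalled forks, rose from 11.7 to 19.3 CPM (edgeR adjusted p = 0.0119), and ORC6, the smallest subunit of the origin recognition complex, rose from 7.79 to 11 CPM (edgeR adjusted p = 0.0356).

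By its log2 changes the list of other mitosis genes lay nearer to the members, but not by its summed CPM. Its mean heat stress sum was 0.997 of the thermoneutral one, with overlapping groups. For the other replication genes this ratio was 0.955, without overlap. Of 71 mitosis genes tested, 3 were lower and 1 higher, but 50 log2 changes were negative and the median was −0.274. At an unadjusted p under 0.05, 21 of the 71 were lower and 4 higher, where 18.2% and 18.4% of all genes were. In 27 all heat stress libraries lay below all thermoneutral ones, and in 8 they lay above, where the shares of all genes were 21.0% and 21.5%. The count of 3 lower was 10 with DESeq2, 8 with upper-quartile scaling and 5 over protein-coding rows. It was 5 without heat stress replicate 1, 1 without thermoneutral replicate 3 and 0 without each of the other 4 libraries. The shares of all genes called lower in these fits are given above. NEK2, a kinase of the centrosome cycle, fell from 1.91 to 0.755 CPM (log2 change −1.33, SE 0.34, edgeR adjusted p = 0.0346). CENPQ, a kinetochore subunit named through RefSeq, fell from 4.47 to 2.19 CPM, and ZWILCH, a part of the checkpoint complex that recruits dynein, from 28.3 to 19.0 CPM (edgeR adjusted p = 0.0422 and 0.0237).

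STAG2, a cohesin subunit that also works outside cell division, rose 1.52-fold, from 101, 92.9 and 94.1 CPM to 134, 148 and 156 CPM (edgeR adjusted p = 0.00920). It passed whichever library was left out. Of the other 16 calls in the 4 lists, RFC5 held its call under 5 of the 6 removals of a library and the rest under 0 to 4.

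**Figure D5:**
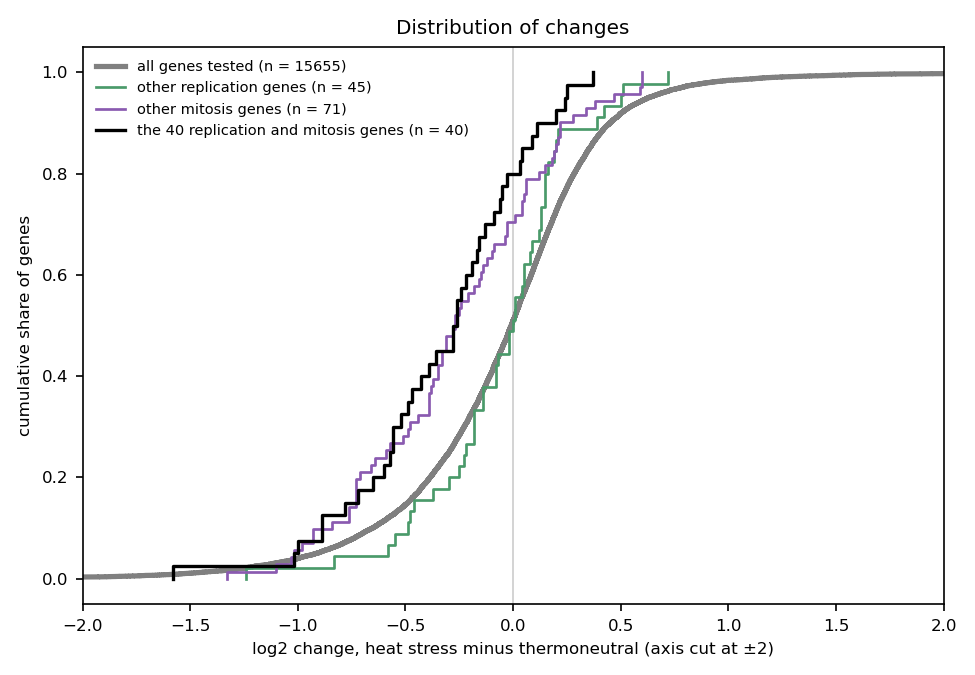
Cumulative share of genes by log2 change (heat stress minus thermoneutral) for the 40 members, the 71 other mitosis genes, the 45 other replication genes and all 15655 genes tested. The members and the other mitosis genes run to the left of all genes over most of the range (axis cut at ±2), with medians of −0.270 and −0.274, while the other replication genes cross 0 at their median of 0.000.

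Of 44 regulators of the G1 phase and of cell cycle transcription, 3 were lower and 3 higher (6.82% each), with a median of 0.074. The shares of all genes were 9.52% and 10.2%. At an unadjusted p under 0.05 in edgeR 8 were lower and 10 higher, beside 18.2% and 18.4% of all genes. CDK2, the kinase partner of cyclins E and A, fell from 21.6 to 15.3 CPM (edgeR adjusted p = 0.0289). CDKN2C, an inhibitor of CDK4 and CDK6, fell from 21.4 to 14.2 CPM (edgeR adjusted p = 0.0187), and MYBL1, a transcription factor of the MYB family, from 2.13 to 0.951 CPM (edgeR adjusted p = 0.0481). LIN52, a subunit of the DREAM complex that represses cell cycle genes in resting cells, rose from 34.2 to 48.8 CPM (edgeR adjusted p = 0.0116). TFDP2, a dimer partner of E2F factors, rose from 51.5 to 76.1 CPM (edgeR adjusted p = 0.0158), and E2F4, the repressive E2F found in DREAM, from 44.8 to 56.6 CPM (edgeR adjusted p = 0.0385).

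A further 6 regulators, chosen by name whatever their value, did not pass. The CDK inhibitor CDKN1A, also called p21, had 55.8, 55.5 and 63.6 CPM at 23 °C and 48.3, 61.1 and 55.1 CPM at 36 °C, with overlapping groups and a log2 change of −0.09 (SE 0.11). CDKN1B, the inhibitor p27, averaged 130 and 155 CPM (log2 change 0.26, SE 0.12, edgeR adjusted p = 0.163), and CCND1, cyclin D1, averaged 37.2 and 43.0 CPM (edgeR adjusted p = 0.125). E2F1, an activating E2F factor, averaged 13.0 and 10.8 CPM (edgeR adjusted p = 0.140), MYC 27.0 and 29.4 CPM, and RB1, the retinoblastoma protein, 118 and 120 CPM. AURKB was not analysed here.

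In the list of S phase checkpoint and replication repair genes 2 of 45 were lower and 2 higher (4.44% each), with a median of −0.090. The shares of all genes were 9.52% and 10.2%. At an unadjusted p under 0.05 in edgeR 2 were lower and 7 higher, beside 18.2% and 18.4% of all genes. HELLS, a chromatin remodeller of dividing cells, fell from 15 to 10.3 CPM (edgeR adjusted p = 0.0235), and RAD50, a break-repair protein named through RefSeq, from 72.9 to 55.6 CPM (edgeR adjusted p = 0.0328). RMI1, a partner of the BLM helicase, rose from 10.5 to 17.5 CPM (edgeR adjusted p = 0.0110), and PMS2, a mismatch repair protein, from 22.7 to 30.5 CPM (edgeR adjusted p = 0.0238).

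Markers of the cell types that the tissue holds were read beside these values. For comparison, edgeR called 9.52% of all genes tested lower and 10.2% higher. At an unadjusted p under 0.05 the shares were 18.2% and 18.4%. Macrophage markers were lower in 4 of 9 tested genes and higher in 0 (8 lower and 0 higher at an unadjusted p under 0.05), and their summed level of 173 to 200 CPM in thermoneutral libraries did not overlap the 132 to 149 CPM of the heat stress libraries. The 4 were VSIG4 and the complement genes C1QA, C1QB and C1QC. T cell markers passed in 0 of 10 (2 had an unadjusted p under 0.05, both lower), with sums of 103 to 121 and 81.8 to 117 CPM. B and plasma cell markers were lower in 1 of 6, with sums of 1120 to 2010 and 1220 to 1430 CPM. JCHAIN averaged 1430 CPM of the mean sum of 1510 CPM in thermoneutral libraries, so these sums mostly describe that gene. The gene called lower was DERL3, from 31.9 to 19.5 CPM. Fibroblast markers were lower in 2 of 9 (3660 to 5430 and 4000 to 4190 CPM), and smooth muscle markers in 1 of 10 (5480 to 8780 and 5220 to 6950 CPM).

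Epithelial markers were higher in 1 and lower in 1 of 9, with sums of 6180 to 6920 and 6060 to 7210 CPM. Endothelial markers were lower in 1 of 9 (701 to 742 and 670 to 755 CPM). Ciliated-cell markers passed in 0 of 7 (1420 to 1750 and 1400 to 1640 CPM; 0 at an unadjusted p under 0.05), and oviduct genes in 0 of 7 (767 to 904 and 906 to 970 CPM; at an unadjusted p under 0.05, 2 were higher and 1 lower). The oviduct sums were thus higher in all heat stress libraries with TMM scaling, but the groups overlapped in CPM on unscaled totals and in FPKM. No listed marker averaged 0, and the lowest were PIFO and PAX5, at 0.0815 and 0.202 CPM in thermoneutral libraries. The part of cell composition in the members' values was not tested.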

How the data were processed

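The authors deposited raw read counts per gene, and FPKM values for the same rows and libraries. Per the submitters' processing notes, fastp, HISAT2 2.0.5 and featureCounts 1.5.0-p3 were used with the build GRCg6a. Whether counting used strand is not given in the sources used here. Overlapping genes are therefore uncertain, and 9 members overlap another row. Counts were tested with edgeR 4.0.16 in R 4.3.3 for heat stress minus thermoneutral: TMM scaling, the filterByExpr filter, its robust quasi-likelihood test and p-values adjusted by Benjamini and Hochberg over all 15655 genes (threshold 0.05). The filter removed 4630 rows. The SE is the absolute log2 change over the square root of F. The script was tested on simulated data. Total counts were 23438814 to 29502991, and genes with few reads carry a larger counting error. No 2 libraries looked like copies: the chi-square per degree of freedom of same-group pairs was 23.3 to 113.

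The members, lists and tests were chosen with earlier results of these data known. Every member is accounted for. Named from each further list are up to 6 genes past the threshold, and CDKN1A, CDKN1B, CCND1, E2F1, MYC and RB1. Symbols missing in the file were taken from RefSeq's table of GRCg7b by NCBI gene number (690 rows). DESeq2 1.42.0, limma-voom (limma 3.58.1), other scalings and filters, a replicate block, protein-coding rows and each library left out were alternatives. Promoter motifs were not analysed here. Replicates are biological per the labels, and p-values measure the spread between pools.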

Additional observations from a re-analysis of the deposited data

How the results depend on the processing

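Of the 40 members, 5 were called lower. With a stricter low-expression filter (a mean of 5 CPM or more, and 1 CPM in each library of either group), which kept 22 members, 3 were lower. BUB1B, SMC2 and NUSAP1 did not reach this filter, so their calls were not tested there. Of the 3, 1 was an origin licensing and helicase gene that the main fit had not called. With the replicate block 3 were lower, SMC2 and NUSAP1 losing their calls. The labels do not say whether the replicate numbers pair the libraries. Same-numbered libraries' deviations from their group mean correlated at −0.0481, 0.250 and 0.0716, and differently numbered ones at −0.274 to 0.207. Deviations from a mean of 3 libraries are tied to one another, so these values cannot decide on a pairing. Leaving out each library gave 1 to 2. The 2 scalings, no filter, protein-coding rows, DESeq2 and limma-voom gave 4 to 6. The 4 further lists had 9 lower and 8 higher genes. There upper-quartile scaling gave 16 lower (7.8%, beside 11.4% of all genes). DESeq2 gave 23 lower and 13 higher (11.2% and 6.34%, beside 12.7% and 13.4% of all genes). Single libraries left out gave 0 to 15 lower and 1 to 16 higher. The shares of all genes in those fits were 0.964% to 10.5% lower and 0.908% to 12.7% higher. Between scalings the split of all calls was 1602 higher to 1490 lower with TMM and 1265 to 1789 with upper-quartile scaling. The cause of these shifts was not tested.

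Log2 changes that turned sign were all small and none belonged to a member that passed. BUB1 was −0.01 with upper-quartile scaling. With libraries left out BUB1 ran from −0.06 to 0.16, CDC6 from −0.08 to 0.33, MCM2 from −0.31 to 0.05, MCM10 from −0.36 to 0.15, PCNA from −0.06 to 0.01, CDK1 from −0.13 to 0.05, CCNE2 from −0.19 to 0.39 and AURKA from −0.02 to 0.22. Depth limits CCNE2, MCM10 and CDC6, at 8 to 30 reads per library, while PCNA rested on 1627 to 1875.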
